A study of Mus musculus with 12 samples.

Results

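The genes described here mark the zones of the liver lobule or carry the Wnt signal that sets them up, and 10 were listed: Glul, Oat, Rhbg, Slc1a2, Gls2, Axin2, Znrf3, Fzd7, Lect2 and Tbx3. Every probeset that the platform annotation assigns to exactly 1 of them was taken, which gave 21 of the 45037 probesets tested and 9 of the 10 listed genes, out of 18193 genes in all. Gls2 was not analysed here. For each gene the probeset with the highest mean over all arrays stands for the gene unless another is named, and every level is a log2 intensity. The study asked how mice that lack ATF6α, a sensor of stress in the endoplasmic reticulum (ER), differ from wild-type mice in liver gene expression when the ER is challenged. Liver RNA was measured on 12 1-colour Affymetrix mouse arrays in 4 groups of 3 animals. Wild-type and Atf6a-/- mice received either vehicle, 150 mM dextrose injected into the peritoneum, or tunicamycin (TM) in the same vehicle at 2 mg/kg, and all were killed 8 h later. The labels describe the age and the gender of the animals as variable and give no more of the allele than its name. Because whole liver was homogenised, fewer cells of a type and less RNA per cell cannot be told apart.

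In the liver lobule, blood flows from the portal tract to the central vein, and hepatocytes along that path express different genes. Wnt ligands made by endothelial cells of the central vein act through Frizzled receptors, LRP co-receptors and β-catenin to keep a pericentral programme on, in which the last hepatocytes before the vein take up ammonium and glutamate and make glutamine. Periportal hepatocytes hold the enzymes of gluconeogenesis, amino acid breakdown and the urea cycle. TM blocks N-linked glycosylation in the ER and so raises the load of unfolded protein that ATF6α senses.

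Promoter windows from 250 bases before to 50 bases after the start of the gene were found in RefSeq (GRCm38.p6) for 6 of the 10 listed genes. Shown are Lect2 and Slc1a2, whose windows hold a TCF/LEF motif, the DNA sequence read by the factors through which β-catenin acts, and for contrast Glul, the defining pericentral enzyme, and Fzd7, the gene whose response differed between genotypes. Letters are lower case, 5′ to 3′ in the direction of the gene, and capitals mark the motif ATCAAAG. Lect2 lies at chr13:56548489-56548788 on the minus strand, Slc1a2 at chr2:102706188-102706487 on the plus strand, Glul at chr1:153899679-153899978 on the plus strand and Fzd7 at chr1:59481897-59482196 on the plus strand.
Lect2: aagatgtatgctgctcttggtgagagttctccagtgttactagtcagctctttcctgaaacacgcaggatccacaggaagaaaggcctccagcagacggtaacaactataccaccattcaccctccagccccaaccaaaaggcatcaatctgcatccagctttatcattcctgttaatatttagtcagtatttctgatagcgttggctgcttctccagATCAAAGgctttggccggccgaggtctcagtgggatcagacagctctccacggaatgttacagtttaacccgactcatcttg
Slc1a2: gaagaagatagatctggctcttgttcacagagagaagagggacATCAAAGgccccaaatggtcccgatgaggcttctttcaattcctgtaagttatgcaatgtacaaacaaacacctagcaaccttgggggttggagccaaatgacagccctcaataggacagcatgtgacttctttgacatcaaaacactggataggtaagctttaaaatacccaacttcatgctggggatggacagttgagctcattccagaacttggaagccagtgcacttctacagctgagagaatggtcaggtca
Glul: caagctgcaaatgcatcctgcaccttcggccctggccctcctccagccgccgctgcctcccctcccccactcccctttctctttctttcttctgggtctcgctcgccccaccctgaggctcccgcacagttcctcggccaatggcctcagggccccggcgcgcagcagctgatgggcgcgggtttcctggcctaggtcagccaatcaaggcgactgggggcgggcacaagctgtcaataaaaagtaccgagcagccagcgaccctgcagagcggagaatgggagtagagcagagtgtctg
Fzd7: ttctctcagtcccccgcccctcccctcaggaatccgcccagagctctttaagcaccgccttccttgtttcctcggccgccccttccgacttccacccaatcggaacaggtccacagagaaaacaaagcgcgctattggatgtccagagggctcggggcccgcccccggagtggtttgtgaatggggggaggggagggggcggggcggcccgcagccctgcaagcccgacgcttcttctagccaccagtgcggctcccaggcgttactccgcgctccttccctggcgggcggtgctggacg

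The motif ATCAAAG began 32 bases before the start of Lect2 and 207 bases before the start of Slc1a2, on the strand of the gene in both. Read on both strands, it was found in 3.73% of the 32851 promoter windows of the table. The windows of Glul, Fzd7, Oat and Axin2 held no match. The other TCF/LEF form, TTCAAAG (5.14% of all windows), was matched in none of the 6 windows. The motifs that ATF6 recognises, the ER stress response elements of the first form (0.119%) and the second form (0.0365%), were matched in none of the 6 either. The same held for the composite ATF4 and C/EBP motif TGATGCAA (0.895%), the AP-1 motif TGAGTCA (5.2%), the cyclic AMP response element TGACGTCA (1.79%) and the HNF4 motif CAAAGTCCA (0.475%), which shares its first letters with the end of both TCF/LEF forms. The windows also differed in composition: G and C made up 45.7% of Slc1a2 and 48% of Lect2, against 64.3% of Glul and 66.7% of Fzd7 and a median of 52.7% over all windows. CpG pairs numbered 1 in Slc1a2 and 7 in Lect2, against 17 in Glul and 24 in Fzd7.

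The array medians lay between 4.98 and 5.11, and arrays of 1 group correlated with r of 0.987 to 0.996 across probesets, with 0 identical pairs. Atf6 itself, whose probeset was not placed relative to the deleted part, read 8.74 to 9.47 in wild-type and 7.03 to 7.79 in Atf6a-/- animals with vehicle, and 10.75 to 11.16 and 9.76 to 10.50 with TM. All 9 genes of a list of known ER stress targets rose with TM in both genotypes. Signal of Y-linked genes was present in 1 array of each group, so that sex was mixed in all 4.

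TM lowered Lect2 and Slc1a2 and raised Tbx3 in both genotypes, lowered Glul and Oat in Atf6a-/- livers, and raised Fzd7 in Atf6a-/- livers. A gene was called changed at a limma adjusted p under 0.05, taken over all probesets, together with a difference above 1.5-fold. In wild-type livers 1 of the 9 genes was called higher with TM, against 8.92% of all genes, and 2 were called lower, against 6.9%. In Atf6a-/- livers 2 of the 9 were called higher, against 13.1% of all genes, and 4 lower, against 8.21%. Between the genotypes under TM, 1 was higher (2.89% of all genes) and 1 lower (1.53%). The median difference over the 9 genes was -0.08 with TM in wild-type and -0.10 in Atf6a-/- livers, close to the medians of -0.06 and -0.10 over all genes. The arrays with TM lay wholly below those with vehicle for 3 of the 9 genes in wild-type and 4 in Atf6a-/- livers, against 22.5% and 29.6% of all genes. They lay wholly above for 1 and 2 of the 9, against 16.8% and 20.8%. Both comparisons with TM are set against their own vehicle group, whereas the genotype comparison under TM shares its arrays with both.

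**Figure D1:**
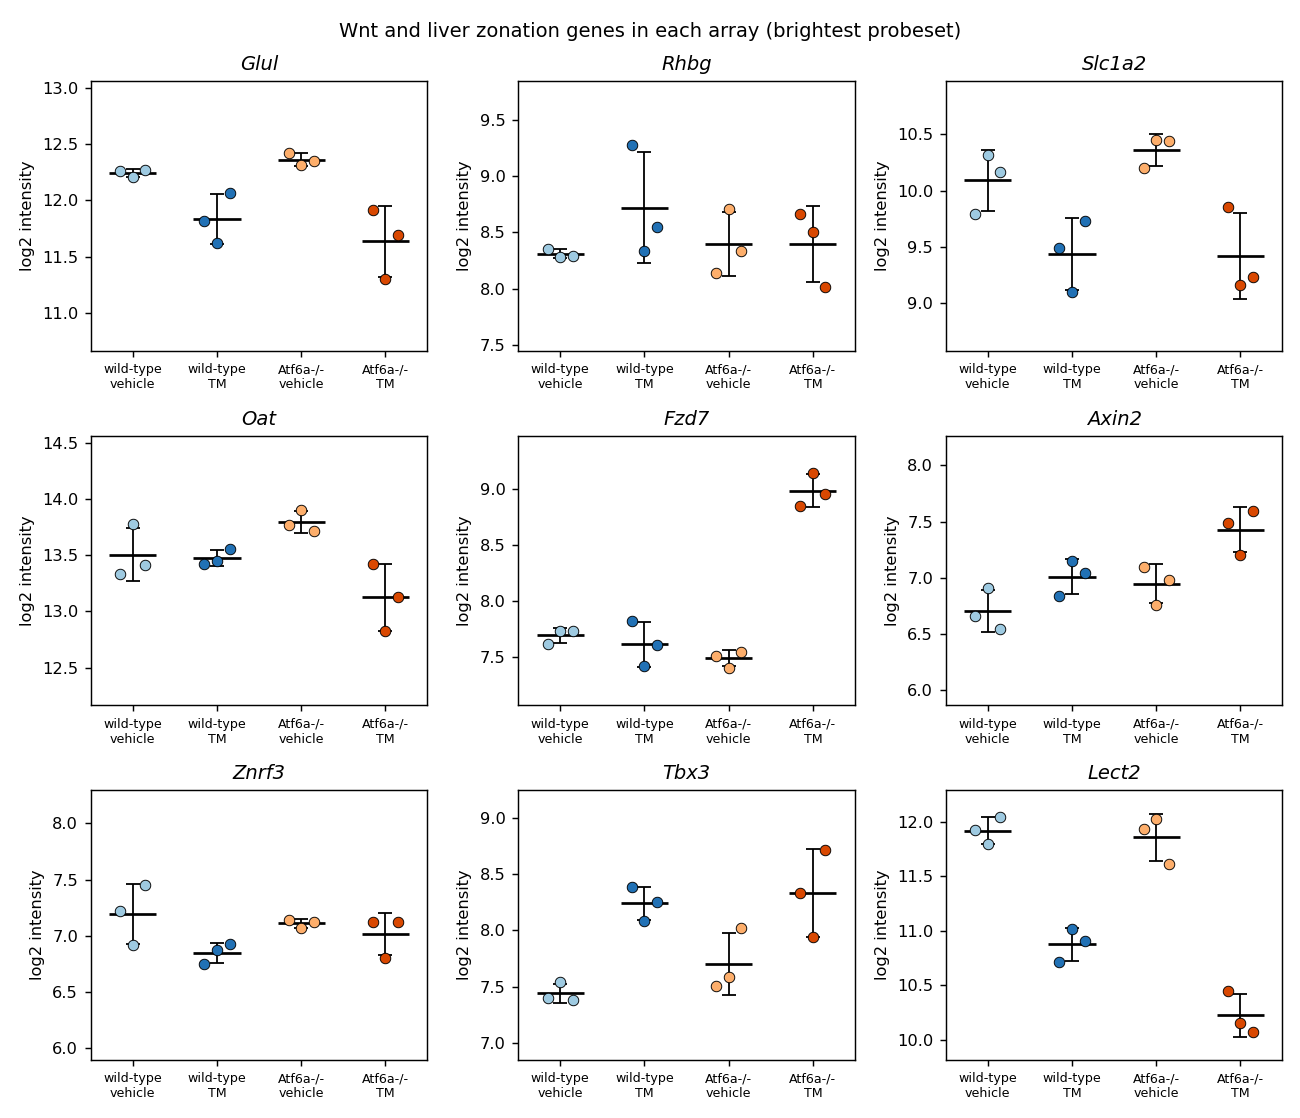
Log2 intensity of the 9 genes in each of the 12 arrays, by genotype and treatment, with a line at each group mean and bars of 1 SD; each panel has its own axis range. The 3 Fzd7 points of Atf6a-/- animals with TM lie between 8.85 and 9.14 and above every other Fzd7 point, and the Lect2 points with TM lie below all Lect2 points with vehicle.

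Glul, Oat, Slc1a2 and Rhbg handle glutamine, glutamate and ammonium in the pericentral cells, and the first 3 of them fell with TM in Atf6a-/- livers. Glul encodes glutamine synthetase, which joins ammonium to glutamate. Its level was 12.26, 12.20 and 12.27 in wild-type animals with vehicle and 11.82, 11.62 and 12.07 with TM. In Atf6a-/- animals it was 12.42, 12.31 and 12.35 with vehicle and 11.92, 11.30 and 11.69 with TM. All 3 arrays with TM lay below all 3 with vehicle in each genotype. The difference in Atf6a-/- livers was -0.73 ± 0.15 (log2 ± SE; limma adjusted p = 0.00269), a level 1.65-fold lower. In wild-type livers it was -0.41 ± 0.15 (adjusted p = 0.0772), which did not pass the test. The responses differed by -0.32 between genotypes (95% interval -0.77 to 0.14; adjusted p = 0.646).

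Oat encodes ornithine aminotransferase, a mitochondrial enzyme that links ornithine to glutamate. Wild-type animals read 13.33, 13.78 and 13.41 with vehicle and 13.42, 13.45 and 13.55 with TM. Atf6a-/- animals read 13.76, 13.90 and 13.71 with vehicle and 13.42, 12.83 and 13.13 with TM. Wild-type groups overlapped, whereas the Atf6a-/- arrays with TM all lay below those with vehicle. Oat fell by 0.67 ± 0.15 on the log2 scale in Atf6a-/- livers (adjusted p = 0.00519), 1.59-fold. The wild-type difference was -0.03 ± 0.15 (adjusted p = 0.937), and the difference between the responses was -0.64 with a 95% interval of -1.10 to -0.18 and an adjusted p of 0.226. Both the Glul and the Oat decrease in Atf6a-/- livers came under 1.5-fold when the second Atf6a-/- animal with TM, the lowest array for both genes, was left out, at -0.56 for Glul and -0.52 for Oat. Without the 4 arrays with Y-linked signal, a set that includes that array, both were -0.56 and again under 1.5-fold.

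Slc1a2 encodes a glutamate transporter of the plasma membrane, known in liver from the cells around the central vein. Its level was 9.79, 10.32 and 10.17 in wild-type animals with vehicle and 9.49, 9.10 and 9.73 with TM. In Atf6a-/- animals it was 10.20, 10.45 and 10.44 with vehicle and 9.86, 9.16 and 9.23 with TM. Treated and control arrays did not overlap in either genotype. Of all genes, 22.5% in wild-type and 29.6% in Atf6a-/- livers likewise lay wholly below with TM. The Slc1a2 levels of the 2 TM groups covered nearly the same range. Slc1a2 fell by 0.94 ± 0.21 on the log2 scale in Atf6a-/- livers (1.92-fold, adjusted p = 0.00424) and by 0.66 ± 0.21 in wild-type livers (1.58-fold, adjusted p = 0.0434). The wild-type call rested on single arrays. It was lost without wild-type vehicle animal 2 or 3, wild-type TM animal 1 or 2, or any 1 of the 3 Atf6a-/- vehicle animals, with differences of -0.49 to -0.68. Rhbg, an ammonium transporter of the hepatocyte membrane, ranged from 8.28 to 8.36 in wild-type animals with vehicle and from 8.34 to 9.28 with TM, where 1 array stood above the rest. It ranged from 8.14 to 8.71 and from 8.01 to 8.66 in Atf6a-/- animals with vehicle and TM. All 4 Rhbg groups overlapped with their neighbours in the order of their means, and no difference passed the test.

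Among the genes of the Wnt signal itself, the Frizzled receptor Fzd7 gave the clearest contrast between genotypes. Its level was 7.62, 7.73 and 7.73 in wild-type animals with vehicle and 7.82, 7.42 and 7.60 with TM. In Atf6a-/- animals it was 7.51, 7.41 and 7.54 with vehicle and 8.85, 9.14 and 8.96 with TM. Every Atf6a-/- array with TM lay more than 1 log2 unit above every array of the other 3 groups, which lay close together. TM raised Fzd7 by 1.49 ± 0.11 in Atf6a-/- livers (2.81-fold, adjusted p = 2.03e-06), whereas the wild-type difference was -0.08 ± 0.11 (adjusted p = 0.722). Under TM, Atf6a-/- livers exceeded wild-type livers by 1.36 ± 0.11 (2.57-fold, adjusted p = 2.93e-05). The responses differed by 1.57 ± 0.16 (adjusted p = 5.0e-04). Among the 9 genes Fzd7 was the 1 called in this test, in which 1.06% of all genes were called higher and 0.748% lower.

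Axin2 encodes a scaffold of the complex that destroys β-catenin and is itself a Wnt target, used widely as a readout of the pathway. Its level was 6.66, 6.91 and 6.54 in wild-type animals with vehicle, 6.84, 7.15 and 7.04 with TM, 7.10, 6.76 and 6.98 in Atf6a-/- animals with vehicle and 7.49, 7.21 and 7.59 with TM. The Atf6a-/- group with TM lay above all other arrays, and the remaining groups overlapped with their neighbours in level. The difference with TM was 0.48 ± 0.14 in Atf6a-/- livers, with an adjusted p of 0.0203 but under 1.5-fold. It was 0.31 ± 0.14 in wild-type livers (adjusted p = 0.160). Without the second Atf6a-/- animal with TM the Atf6a-/- difference was 0.59, which passed. Znrf3 encodes a membrane ubiquitin ligase that removes Frizzled receptors from the cell surface and is also a Wnt target. It lay between 6.74 and 7.45 in all 12 arrays, no difference passed the test, and the largest was -0.35 ± 0.13 with TM in wild-type livers (adjusted p = 0.0960).

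Lect2, a secreted hepatokine whose gene is a known target of β-catenin in liver, fell in both genotypes. Its level was 11.92, 11.79 and 12.04 in wild-type animals with vehicle and 10.71, 11.01 and 10.90 with TM. In Atf6a-/- animals it was 11.93, 12.03 and 11.61 with vehicle and 10.45, 10.16 and 10.07 with TM. The vehicle groups overlapped, the TM groups lay below both, and the Atf6a-/- TM group lay below the wild-type TM group without overlap. The decrease was 2.06-fold in wild-type livers (-1.04 ± 0.14, adjusted p = 1.8e-04) and 3.10-fold in Atf6a-/- livers (-1.63 ± 0.14, adjusted p = 3.9e-06). Under TM the Atf6a-/- level was 1.57-fold lower than the wild-type level (-0.65 ± 0.14, adjusted p = 0.0177). The responses differed by -0.59, with a 95% interval of -1.01 to -0.17 and an adjusted p of 0.220 over all probesets. The genotype call under TM was lost without wild-type TM animal 2 or 3 or Atf6a-/- TM animal 2 or 3, at differences of -0.57 to -0.64.

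Tbx3, a transcription factor of the T-box family that β-catenin induces in hepatocytes, rose in both genotypes. Its level was 7.40, 7.54 and 7.38 in wild-type animals with vehicle and 8.38, 8.09 and 8.25 with TM, which did not overlap. In Atf6a-/- animals it was 7.50, 7.59 and 8.02 with vehicle and 8.34, 7.94 and 8.72 with TM, and the third vehicle array lay above the second TM array. The increase was 1.74-fold in wild-type livers (0.80 ± 0.18, adjusted p = 0.00780) and 1.55-fold in Atf6a-/- livers (0.63 ± 0.18, adjusted p = 0.0213). The Atf6a-/- call was lost without Atf6a-/- vehicle animal 1 or 2 or Atf6a-/- TM animal 1 or 3, at differences of 0.44 to 0.63, and after quantile normalization, at 0.45 (adjusted p = 0.0653). Tbx3 and Lect2, both known targets of β-catenin, thus moved in opposite directions with TM in both genotypes.

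**Figure D2:**
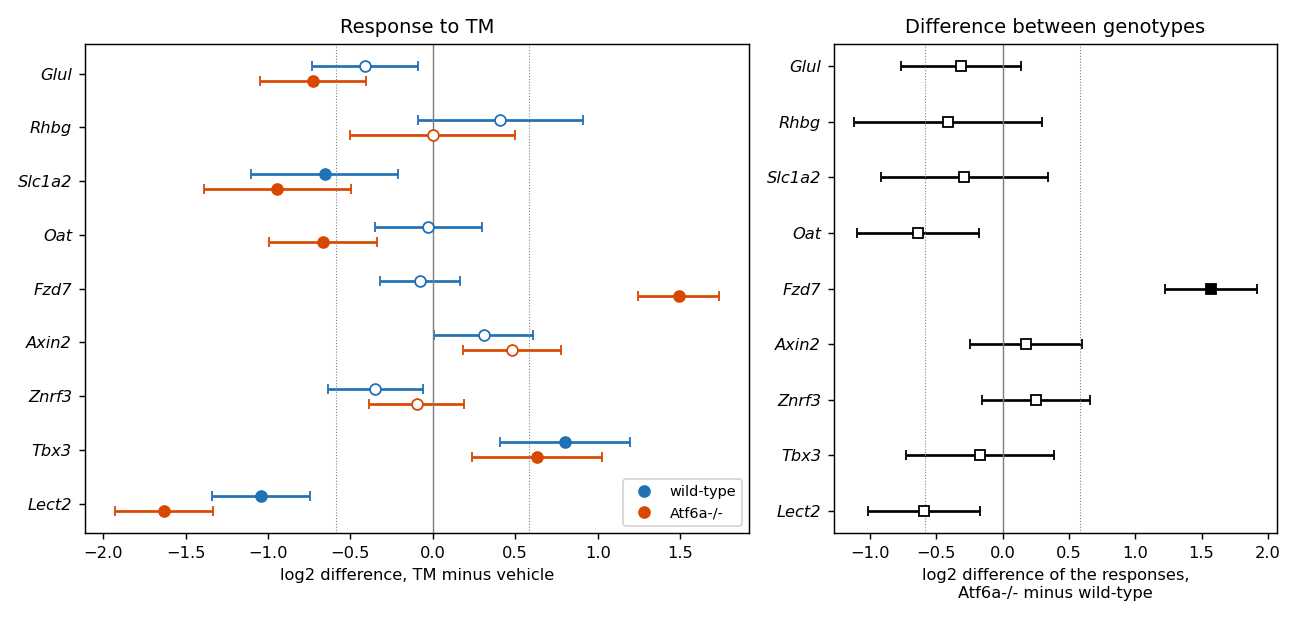
Left, difference with TM (log2 with its 95% interval) of the 9 genes in each genotype against its own vehicle group, and right, the difference of these responses, with filled points called and dotted lines at 1.5-fold. The intervals of the genotypes lie apart for Fzd7 (-0.08 and 1.49), while those of the other 8 genes overlap, narrowly for Oat and Lect2.

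Without stress, no difference between genotypes was detectable in these genes with 3 arrays a group. The Atf6a-/- minus wild-type difference with vehicle ran from -0.21 for Fzd7 to 0.29 for Oat over the 9 genes, with a median of 0.12. None passed the limma test and 0 had an unadjusted p under 0.05, in a comparison where 0% of all genes were called. The 3 arrays of a genotype did not overlap for Glul, higher in Atf6a-/- animals, and for Fzd7, lower in them, against 4.85% and 3.68% of all genes that lay wholly above or below. Under TM, Axin2 and Fzd7 lay wholly above the wild-type arrays and Lect2 wholly below, against 13.4% and 10.2% of all genes, so that 1 of 9 below is near the share over all genes.

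Probesets of 1 gene did not always move alike. The second Fzd7 probeset had a highest group mean of 5.79, not far above the median of 5.04 over all values. It differed by 0.17 with TM in Atf6a-/- livers (adjusted p = 0.373), and its responses differed by 0.09 between genotypes (adjusted p = 0.925), so the Fzd7 result rests on 1 probeset. The second Glul probeset fell by 0.64 in Atf6a-/- livers (adjusted p = 0.0415) and gave -0.52 in wild-type livers (adjusted p = 0.123), in the direction of the first. Of the 4 further Slc1a2 probesets, 1 fell by 1.11 in Atf6a-/- livers (adjusted p = 0.00756). Another, with a highest group mean of 9.37, gave -0.56 there with an adjusted p of 0.0185, under 1.5-fold. The remaining 2 lay under the median of all values in every group. In wild-type livers the probeset that fell by 1.11 gave -0.48 (limma adjusted p = 0.2655). The one with the mean of 9.37 gave -0.16 there (adjusted p = 0.575). For both, wild-type arrays with TM and vehicle overlapped, so the wild-type Slc1a2 call rests on 1 probeset. Of the 4 further Tbx3 probesets, the brightest rose by 0.94 in wild-type livers (adjusted p = 0.0168) and gave 0.38 in Atf6a-/- livers (adjusted p = 0.276), and no other Tbx3 probeset passed in either. Averaged over all probesets of the gene, the difference with TM in Atf6a-/- livers was 0.83 for Fzd7, still called, and 0.21 for Tbx3, not called. In wild-type livers the same averages were 0.44 for Tbx3 and -0.30 for Slc1a2, neither of them called. Which part of the transcript each probeset reads was not analysed here.

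**Figure D3:**
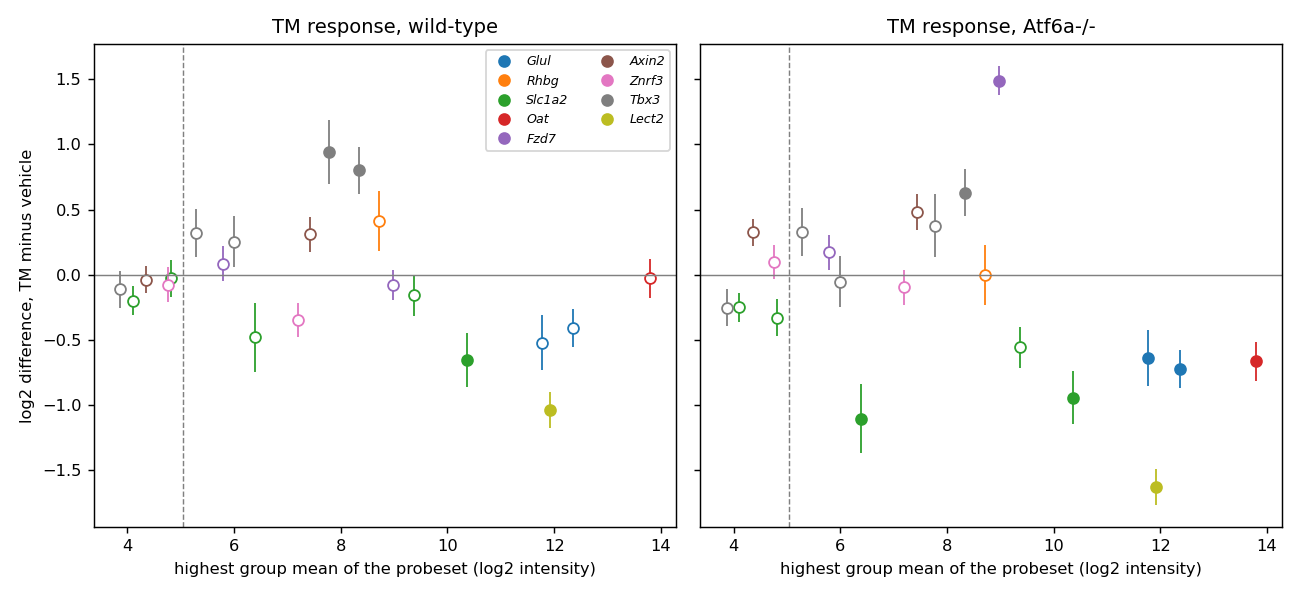
Difference with TM (log2) with its standard error for each of the 21 probesets in each genotype, against the highest group mean of the probeset (log2 intensity). Filled points are called, and the dashed line is the median of all values. The Fzd7 probesets lie far apart in Atf6a-/- livers, at 1.49 and 0.17.

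For each gene called in any comparison, the genes with the most similar profile were sought among 11783 genes, by the root mean square difference (RMS) over the 12 arrays after each profile was set to its wild-type vehicle mean. Nearest to Fzd7 were Lcmt2 (RMS 0.186) and Tgif1, a homeobox repressor of TGF-β signalling (RMS 0.201). Tgif1 differed by 0.10 with TM in wild-type and by 1.45 in Atf6a-/- livers. Nearest to Lect2 were Sesn3, a stress-responsive regulator of mTORC1 (RMS 0.143), and Fn1, which encodes fibronectin (RMS 0.144). Nearest to Glul were Znfx1 (RMS 0.116) and Rnase4 (RMS 0.124), the latter itself on the list of pericentral genes. Nearest to Oat were Kyat3 (RMS 0.152), an aminotransferase of the kynurenine path, and Cdh13 (RMS 0.157). Slc1a2 was closest to Cpt2 (RMS 0.164), of mitochondrial fatty acid oxidation, and to Oplah (RMS 0.186), of glutathione turnover. Tbx3 was closest to Sec16a (RMS 0.164), which organises ER exit sites, and to Cep170 (RMS 0.178).

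Among other genes of both zones, more were called lower than higher with TM. Over all genes the shares called were 8.92% higher and 6.9% lower in wild-type and 13.1% higher and 8.21% lower in Atf6a-/- livers. Of 22 other pericentral genes measured, 1 rose and 4 fell with TM in wild-type livers and 1 rose and 10 fell in Atf6a-/- livers, with medians of -0.24 and -0.53. Of 21 other periportal genes, 1 rose and 8 fell in each genotype, with medians of -0.51 and -0.68, against -0.06 and -0.10 over all genes. Among the pericentral genes, Nr1i3, the xenobiotic receptor CAR, fell by 1.84 in wild-type and by 1.43 in Atf6a-/- livers. Ahr, the aryl hydrocarbon receptor, fell by 1.09 and by 1.06, and Lhpp, a histidine phosphatase, fell by 0.74 and by 1.47. The exception was Avpr1a, a vasopressin receptor, which rose by 1.15 and by 2.05. Among the periportal genes, Gldc, of glycine cleavage, fell by 2.30 in wild-type and fell by 1.81 in Atf6a-/- livers, and the aldehyde dehydrogenase Aldh1b1 fell by 2.06 and by 2.68. Apoa4, an apolipoprotein, fell by 0.86 in wild-type and fell by 0.68 in Atf6a-/- livers, the growth factor Igf1 fell by 0.61 and fell by 0.79, and the peptidase Dpp4 fell by 0.60 and fell by 0.87. Neither list held a gene called between genotypes under TM, where only 2.89% of all genes were higher and 1.53% lower. None was called in the test of the difference between responses either, where 1.06% of all genes were higher and 0.748% lower. Hal, the periportal histidine ammonia-lyase, differed by 1.12 ± 0.34 between genotypes under TM (adjusted p = 0.0988).

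Upstream in the pathway, of 25 Wnt ligands and R-spondins measured, 12 lay under the median of all values in every group, and 1 rose and 1 fell in each genotype. Of all genes, 8.92% rose and 6.9% fell in wild-type and 13.1% rose and 8.21% fell in Atf6a-/- livers. Wnt5a, a ligand known mainly for β-catenin-independent signalling, went from a mean of 4.07 to 5.05 in wild-type and from 3.70 to 5.98 in Atf6a-/- livers, increases of 0.98 (adjusted p = 0.0141) and 2.28 (adjusted p = 2.5e-05). Since its vehicle levels lay under the median of all values, the size of these differences is less certain. The responses of Wnt5a differed by 1.30 (adjusted p = 0.111). Wnt5b fell by 0.77 in wild-type and fell by 1.54 in Atf6a-/- livers, where its mean with TM, 4.90, was also under that median.

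Of 17 other receptors and co-receptors, 1 rose and 3 fell in wild-type (8.92% and 6.9% of all genes) and 1 rose and 4 fell in Atf6a-/- livers (13.1% and 8.21% of all genes). Lgr4 and Lgr5, the R-spondin receptors that protect Frizzled proteins from removal, fell in both genotypes. Lgr4 fell by 1.62 in wild-type livers and dropped by 1.60 in Atf6a-/- livers. Lgr5, which is counted in the pericentral and target lists too, fell by 1.21 and by 1.02. Fzd4 fell by 1.33 in wild-type and fell by 1.81 in Atf6a-/- livers, and Ror1, a co-receptor of Wnt5a, fell by 1.28 in Atf6a-/- livers to a mean of 4.30, under the median of all values, which makes its size less certain. Fzd5 rose by 1.44 in wild-type and by 0.85 in Atf6a-/- livers and was lower in Atf6a-/- livers under TM (-0.80 ± 0.16, adjusted p = 0.0152). Fzd7 and Fzd5, both Frizzled receptors, thus stood on opposite sides between genotypes under TM. Of 16 secreted and surface inhibitors, 9 of them dim in every group, Rnf43, the partner of Znrf3, fell by 0.73 and by 0.59. Notum, a secreted enzyme that inactivates Wnt ligands, fell by 1.00 in wild-type livers and differed by -0.63 in Atf6a-/- livers (adjusted p = 0.0547).

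Of 19 genes of β-catenin and its destruction complex, 1 rose in wild-type livers, where 8.92% of all genes did, and 5 rose in Atf6a-/- livers, where 13.1% did. In neither genotype was a gene of the list called lower, against 6.9% and 8.21% of all genes. The 1 in wild-type was the kinase gene Gsk3b (0.69), which rose also in Atf6a-/- livers (0.61) beside Axin1 (0.74), Tnks (0.73), Rnf146 (0.89) and Frat2; Gsk3b and Frat2 are named after their values were seen. Rnf146 and Tnks encode the ubiquitin ligase and the tankyrase that together mark axin for destruction. Rnf146 was higher in Atf6a-/- livers under TM (0.63 ± 0.09, adjusted p = 0.00135), and its responses differed by 0.66 (adjusted p = 0.0239). Ctnnb1, which encodes β-catenin, differed by -0.46 with TM in wild-type livers (adjusted p = 0.00211), under 1.5-fold. Of 16 TCF/LEF factors and nuclear partners, 2 rose and 2 fell in wild-type livers, where 8.92% and 6.9% of all genes did. In Atf6a-/- livers 1 rose and 2 fell, where 13.1% and 8.21% of all genes did. The co-repressor gene Tle1 rose by 1.12 and by 1.10. Tcf7l2, the main TCF factor of hepatocytes, fell by 0.89 and by 0.61, and Tle5 fell by 0.71 and by 1.26. Bcl9, a β-catenin co-activator, was lower in Atf6a-/- livers under TM (-0.87 ± 0.14, adjusted p = 0.00477).

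Of 21 other Wnt target genes, 2 rose and 4 fell in wild-type livers, where 8.92% and 6.9% of all genes did. In Atf6a-/- livers 1 rose and 2 fell, where 13.1% and 8.21% of all genes did. Sp5, a direct target, rose by 1.33 in wild-type livers and was 0.93 lower in Atf6a-/- than in wild-type livers under TM (adjusted p = 0.00342). Myc rose in both genotypes, by 3.32 in Atf6a-/- livers, and its responses differed by 1.82 (adjusted p = 0.00923). Ptch1 fell by 1.17 in wild-type livers. The others that fell there were Lgr5, Rnf43 and Notum, which are counted in the receptor or inhibitor lists too. The 2 that fell in Atf6a-/- livers were again Lgr5 and Rnf43. Tnfrsf19 was higher in Atf6a-/- livers under TM by 0.91 (adjusted p = 0.00187).

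Other genes of glutamine, glutamate and ammonium handling numbered 26, of which 6 rose and 2 fell in each genotype, with medians of -0.05 and -0.02. Of all genes, 8.92% rose and 6.9% fell in wild-type and 13.1% rose and 8.21% fell in Atf6a-/- livers, so the number that fell here was close to that share. Aldh18a1, which makes the proline precursor from glutamate, rose by 4.71 in wild-type and by 3.53 in Atf6a-/- livers, from means with vehicle of 5.37 and 5.02, near the median of all values, so that the size of these differences is less certain. Slc38a2, a glutamine transporter, rose by 1.19 and by 1.48, and Gpt2, which uses glutamate to make alanine, rose by 1.04 and by 1.60. Got1, the cytosolic aspartate aminotransferase, rose by 1.86 in wild-type livers and differed by 0.53 in Atf6a-/- livers, a difference of -1.33 between the responses (adjusted p = 0.0145). Nags, whose product makes the activator of the urea cycle, was higher in Atf6a-/- livers under TM (0.83 ± 0.11, adjusted p = 0.00134). 

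**Figure D4:**
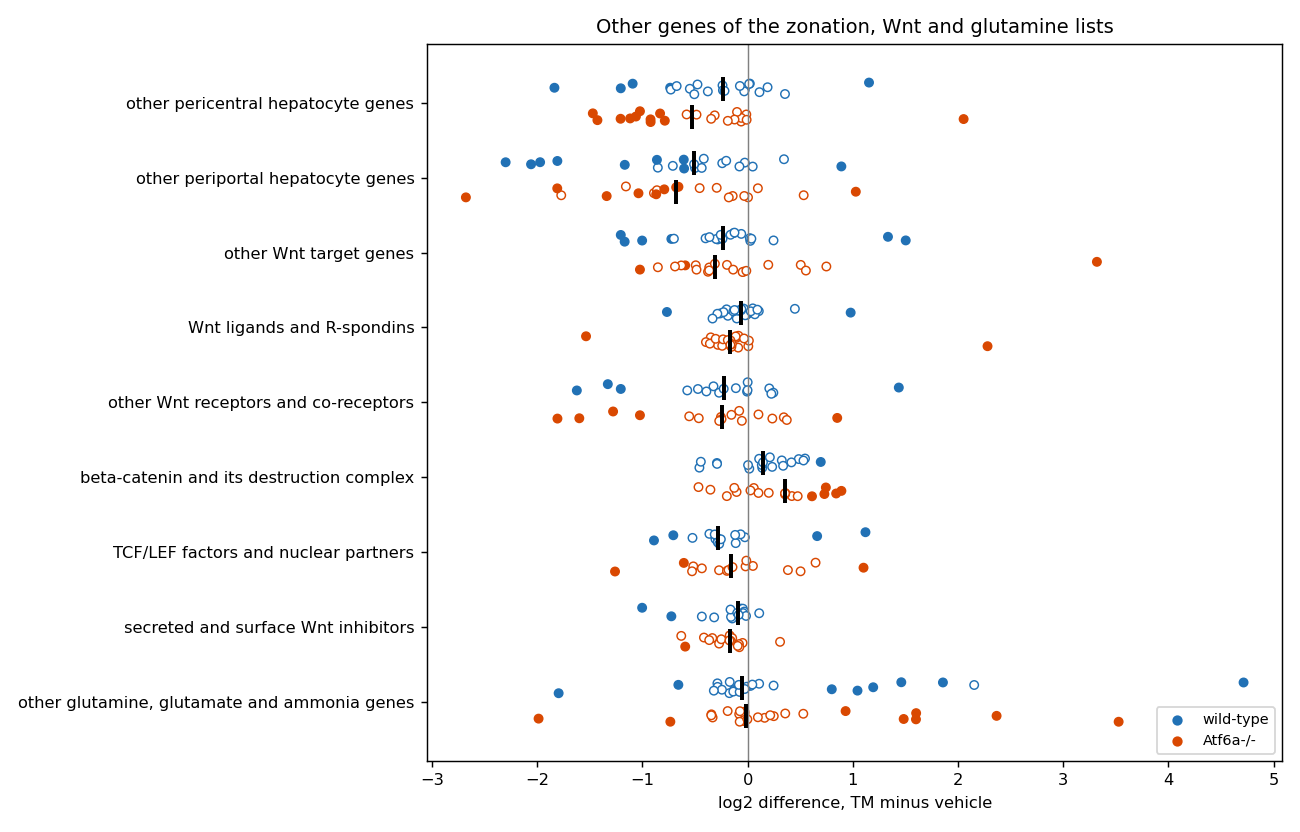
Difference with TM (log2) of each gene of the 9 other lists in wild-type and in Atf6a-/- livers, with filled points called and a black line at the median; the vertical scatter within a list carries no value. The other pericentral list has 4 genes called lower in wild-type and 10 in Atf6a-/- livers, and the periportal list has 8 in each.

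Markers of liver cell types were read beside these results. With TM, 8.92% of all genes were called higher and 6.9% lower in wild-type livers, and 13.1% and 8.21% in Atf6a-/- livers. The 8 hepatocyte markers measured summed to log2 intensities of 17.26 to 17.32 in wild-type livers with vehicle and 17.21 to 17.25 with TM. These wild-type ranges lay apart by a small step. In Atf6a-/- livers the sums overlapped, at 17.26 to 17.30 with vehicle and 17.22 to 17.31 with TM. Of these 8 markers 0 were called in wild-type livers, and in Atf6a-/- livers Hnf4a was higher and Apob lower with TM. The summed level of 10 liver endothelial markers lay between 12.36 and 12.95 in wild-type and 12.37 and 12.69 in Atf6a-/- animals with vehicle. With TM it lay between 12.43 and 12.48 in wild-type and 12.23 and 12.53 in Atf6a-/- animals. Of these 10, Kdr fell in wild-type livers and Lyve1 rose in Atf6a-/- livers. Of 10 Kupffer cell markers, 0 were called in wild-type livers and Adgre1, Marco and Csf1r fell in Atf6a-/- livers, where the sum was 13.29 to 13.96 with vehicle and 12.83 to 13.35 with TM. In wild-type livers the Kupffer sum was 13.20 to 14.09 with vehicle and 13.32 to 13.56 with TM. Of 10 stellate cell markers, Lrat fell in both genotypes and Pdgfrb in wild-type livers. There the median difference of the list was -0.72 and 7 had an unadjusted limma p under 0.05, as had 6472 of all 18193 genes. The stellate sum was 12.83 to 13.55 in wild-type livers with vehicle and 12.73 to 13.03 with TM, and 12.83 to 13.15 and 12.52 to 12.95 in Atf6a-/- livers. Of 6 cholangiocyte markers, Krt7, Cldn7 and Cftr were dim in every group and Krt19 fell in Atf6a-/- livers. Their sum was 8.02 to 8.10 in wild-type livers with vehicle and 7.84 to 7.92 with TM, and 7.93 to 8.17 and 7.72 to 7.84 in Atf6a-/- livers. Of 6 neutrophil markers, 3 of them dim in every group, 0 were called by limma, with 2 in wild-type and 4 in Atf6a-/- livers at an unadjusted p under 0.05. Of all 18193 genes, 6472 in wild-type and 8490 in Atf6a-/- livers had such a p. The median of the summed neutrophil markers was 8.38 in wild-type livers with vehicle and 7.43 with TM, and 8.56 and 7.49 in Atf6a-/- livers. Of 8 lymphocyte markers, Cd3g and Ms4a1 were dim in every group, and Cd79b and the dim Ms4a1 fell in Atf6a-/- livers. The sum of the 8 was 8.71 to 9.13 in wild-type livers with vehicle and 8.55 to 8.59 with TM, and 8.72 to 8.88 and 8.41 to 8.51 in Atf6a-/- livers. Summed markers of the lymphocyte and cholangiocyte lists lay lower in every array with TM than in any array with vehicle of the same genotype. Such a separation is common here: 22.5% of all genes in wild-type and 29.6% in Atf6a-/- livers lay wholly below with TM. Between the genotypes under TM, 0 markers of these 7 lists were called, where only 2.89% of all genes were higher and 1.53% lower. The part of these cell types in the results above was not tested.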

How the data were processed

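The 4 groups of 3 arrays were taken from the sample labels, which number the animals. The deposited values are log2 intensities of 1-colour Affymetrix arrays; the submitters' processing notes name RMA, affy and limma, with no versions. RMA subtracts background, quantile normalizes probe intensities over arrays and summarises each probeset on the log2 scale, which tends to understate differences of dim probesets. The table holds 45101 probesets, of which 64 controls were left out. The annotation gives 1 gene to 34945 of the rest, several to 932 and none to 9160. A further Slc1a2 probeset shared with another gene was left out.

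With limma 3.58.1 in R 4.3.3, all 12 arrays entered a single fit of group means with moderated variances (8 residual and 4.25 prior degrees of freedom), 5 contrasts and Benjamini-Hochberg adjustment over 45037 probesets. Errors are moderated standard errors, intervals are 95% and a test across genes is two-sided. The number of arrays limits the precision, and an exact permutation test of 3 against 3 cannot go below p = 0.1, so none is given. In simulated data for the wild-type comparison, with 45037 probesets and independent noise, 100 of 100 changes of 2 on the log2 scale and 84 of 100 changes of 1 were called, with 10 false calls among 44837. The data held many more changes, with 1623 of 18193 genes called higher and 1255 lower, so these rates need not carry over to them.

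The listed genes, the other gene lists and the tests were chosen with earlier results of these data known. Named are all listed genes. Of each pathway list, genes could be named that were among those with the largest limma statistic (3 per comparison with TM, 2 per comparison of genotypes under TM or of responses), and any marker could be; not every gene that the rule allowed is named. A gene named by this rule in 1 comparison is followed in the others. Dim means a group mean under 5.04, the median of all values, in every group. Animals of the same number deviated from their group means with r of -0.58 to 0.50 across probesets, so the numbers were not taken to pair them. Alternatives were quantile and cyclic loess normalization, centring on Btf3 and Ppia, a filter on dim probesets, other fold thresholds, trended and robust variances, a fit of the compared groups alone, the methods' t-test, a replicate block, a sex covariate (Y-linked genes less Xist), the mean over all probesets of a gene and leaving out each array. A fit without the 4 arrays that carry Y-linked signal was chosen after seeing the data. No coordinates of probesets were used, and promoter coordinates are those of the RefSeq table.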

Additional observations from a re-analysis of the deposited data

Results flagged for a closer look

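For Fzd7 the response to TM differed between genotypes, by 1.57 on the log2 scale (Atf6a-/- minus wild-type, 3 arrays in each of the 4 groups, limma adjusted p = 5.0e-04). The probeset behind it rose in Atf6a-/- livers, while the second Fzd7 probeset gave 0.09 in the same test (adjusted p = 0.925). It was called under every alternative in which the difference of responses was fitted, with values from 0.83 to 1.67. No gene was screened for single arrays far from the rest, since every group held 3.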

How the results depend on the processing

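Over the 9 genes, the number called lower with TM in wild-type livers was 2 as reported and 1 with a 2-fold threshold, with only the compared groups in the fit, with the methods' t-test before and after Benjamini-Hochberg adjustment, with the replicate block, with the mean of all probesets and without the 4 arrays with Y-linked signal; leaving out 1 array gave 1 to 2, and the gene lost was Slc1a2. The number higher there was 1 and became 0 with a 2-fold threshold and with the mean of all probesets. In Atf6a-/- livers the number higher was 2 and became 1 with quantile or cyclic loess normalization, with centring, with a 2-fold threshold, with only the compared groups, with either form of the t-test and with the mean of all probesets; leaving out 1 array gave 1 to 3, with Tbx3 lost or, without Atf6a-/- TM animal 2, Axin2 gained. Axin2 also made it 3 with no fold threshold and without the Y-linked arrays. The number lower there was 4 and became 1 with a 2-fold threshold and with the adjusted t-test and 2 without the Y-linked arrays; leaving out 1 array gave 2 to 4. Between genotypes under TM, the 1 gene higher became 0 with the adjusted t-test, where Fzd7 had an adjusted p of 0.122. The 1 gene lower became 0 with centring, with a 2-fold threshold and with the adjusted t-test; leaving out 1 array gave 0 to 1. The counts with vehicle and of differences between responses kept their values. The replicate block moved no other count of calls than that of Slc1a2 in wild-type livers, whose difference of -0.66 then had a limma adjusted p of 0.0681.

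Differences that changed sign were small, and none was called in either setting. With TM in wild-type livers, Oat gave 0.0399 with cyclic loess and 0.133 without the Y-linked arrays, and -0.117 to 0.107 when 1 array was left out, while Fzd7 gave 0.0026 with the mean of all probesets and -0.181 to 0.0182 when 1 array was left out. With TM in Atf6a-/- livers, Rhbg gave 0.0012 with the sex covariate and -0.136 to 0.188 without 1 array, and Znrf3 gave 0.0154 without the Y-linked arrays and -0.153 to 0.0086 without 1 array. Between genotypes under TM, Slc1a2 gave 0.0067 with centring, 0.131 without the Y-linked arrays and -0.240 to 0.125 without 1 array, and Tbx3 gave -0.0485 with the mean of all probesets and -0.101 to 0.287 without 1 array. With vehicle, Fzd7 gave 0.0275 with the mean of all probesets, and without 1 array Rhbg gave -0.0710 to 0.211, Lect2 -0.147 to 0.0613 and Znrf3 -0.221 to 0.0441. The difference of responses of Tbx3 was 0.201 without the Y-linked arrays and -0.366 to 0.0221 without 1 array. Causes were not tested.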
